A study of Rattus norvegicus with 30 samples.

Results

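The genes that make cholesterol, move it within the cell and control its synthesis through SREBP2 were followed on microarrays of primary rat hepatocytes exposed to acetaminophen. A list of 30 gene symbols defined the module. Each gene was measured by its brightest probe set, taken by mean log2 signal over 30 arrays. The array annotation named 28 of the 30 genes, and 27 of these were bright enough to be tested, among 8531 genes tested and 14217 named. Hmgcs1 and Npc1 had no listed probe set and were not analysed here, and Soat1 was too dim to be tested with the others.

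The cells were frozen hepatocytes of male Sprague Dawley rats bought from XenoTech, thawed, plated on collagen and covered with Matrigel. On day 3 of culture the wells were dosed and RNA was taken 24 or 48 h later, in a design of time and dose. The 6 groups were vehicle (1% DMSO), 500 µM acetaminophen and 5000 µM acetaminophen at 24 h, and the same 3 treatments at 48 h. Each group held 5 wells described as independent cultures, each hybridised to its own array, and the dosing solutions of acetaminophen were also made in DMSO. The labels give neither the age nor the number of rats behind the purchased cells, so the p-values speak of variation among wells, which may be technical, rather than among rats.

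Cholesterol is built from acetyl-CoA through mevalonate, isoprenoid diphosphates, squalene and lanosterol in the endoplasmic reticulum. When sterols in that membrane run low, SCAP escorts the precursor of the transcription factor SREBP2 to the Golgi, where the site-1 and site-2 proteases release its active domain. INSIG proteins hold SCAP back when sterols are plentiful. The liver is a main site of this synthesis, of cholesterol export and of its conversion to bile acids.

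The stretches before the gene starts are shown for Mvk, Mvd and Fdps, enzymes with called falls, and for Srebf2, the gene of the regulator, because members of the pathway share short promoter words. Promoter entries of the RefSeq annotation of build GRCr8 matched 26 of the 30 members. Pmvk, Fdft1, Sqle and Stard4 had no entry in the table. The sequences run 5′ to 3′ on the strand of the gene and cover the 200 bases just before its start. Capitals mark CCAAT read on either strand (CCAAT or ATTGG) and, in Fdps, TCACNCGAG.

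Mvk (chr12:47819504-47819703, minus strand): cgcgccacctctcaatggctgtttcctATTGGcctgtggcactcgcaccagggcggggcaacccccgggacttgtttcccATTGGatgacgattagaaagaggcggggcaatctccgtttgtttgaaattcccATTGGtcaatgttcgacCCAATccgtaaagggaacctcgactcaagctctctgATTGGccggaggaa

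Mvd (chr19:67414975-67415174, minus strand): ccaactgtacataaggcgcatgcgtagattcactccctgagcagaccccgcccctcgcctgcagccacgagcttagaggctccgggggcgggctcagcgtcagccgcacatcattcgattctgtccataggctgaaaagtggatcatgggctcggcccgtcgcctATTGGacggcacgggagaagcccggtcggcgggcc

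Fdps (chr2:176804817-176805016, minus strand): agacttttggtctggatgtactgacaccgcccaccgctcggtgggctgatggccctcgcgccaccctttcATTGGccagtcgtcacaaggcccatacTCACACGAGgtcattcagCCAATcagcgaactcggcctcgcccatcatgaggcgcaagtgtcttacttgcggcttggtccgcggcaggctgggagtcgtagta

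Srebf2 (chr7:115543107-115543306, plus strand): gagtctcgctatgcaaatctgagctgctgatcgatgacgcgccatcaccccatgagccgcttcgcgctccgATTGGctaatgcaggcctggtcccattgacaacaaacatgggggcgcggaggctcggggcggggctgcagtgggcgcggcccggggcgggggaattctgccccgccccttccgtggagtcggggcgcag

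In these windows Mvk held 5 CCAAT words, Fdps 2, and Mvd and Srebf2 1 each. The Srebf2 window lies inside the gene's span in the same annotation, so it belongs to a start within the gene. Over the 250 bases before the start, CCAAT was found in 19 of 26 member promoters (73.1%) and in 36.1% of the 7242 promoters of tested genes that have an entry. The GC box GGGCGG was found in 21 of 26 (80.8%) and in 60.3%. TCACNCGAG, a form of the sterol regulatory element, was found only in Fdps among the members and in 0.539% of tested genes. The classical form TCACNCCAC was found in 0 of 26 and in 0.967%. All words were searched on both strands, and matches of different words that overlap were each counted. A match is a description of letters in this window, and the words were chosen after the promoters had been looked at.

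RNA quality differed between groups. It was read from the β-actin control probe sets, as the log2 signal at the 3' end of the transcript minus that at the 5' end, called the 3'/5' ratio. Vehicle arrays averaged 1.78 ± 0.24 (SD, n = 5) at 24 h, when the low dose averaged 1.61 ± 0.33 and the high dose 1.37 ± 0.22. The high dose differed from vehicle there by -0.41 (exact two-sided permutation p = 0.0476, adjusted p = 0.0833). At 48 h the averages were 1.24 ± 0.11, 1.86 ± 0.12 and 1.21 ± 0.05 in the same order. The widest gap between arrays ran from 1.54 to 1.74, and it separated all 5 arrays at 500 µM and 48 h from all 5 of their vehicle (difference 0.62, exact permutation p = 0.00794, adjusted p = 0.0185 over 7 comparisons, two-sided, the smallest p 5 against 5 arrays can give). At 24 h, 3 of 5 vehicle arrays, 3 of 5 arrays at 500 µM and 1 of 5 at 5000 µM lay above the gap. Of 8 hepatocyte markers such as albumin and transthyretin, 7 were named on the array and tested. Their summed signal lay between 346205 and 463217 on every array, and limma called 1 of 7 higher at 500 µM and 48 h and 0 of 7 in the other 3 comparisons with vehicle, where 1 of 7 had an unadjusted p under 0.05 at 5000 µM and 48 h and 0 of 7 at 24 h. The summed signal of 7 markers of Kupffer cells and leukocytes, of which 2 were bright enough to test, was 20170 in vehicle and 14488 at 5000 µM at 24 h, with no overlap of arrays, and 18462 and 15240 at 48 h. Most of that sum was Cd14, which was called lower at 5000 µM (-0.54 at 24 h and -0.28 at 48 h), while the other tested marker, Cd68, was not called (0.18 and -0.10). Markers of stellate cells (2 of 8 named tested), sinusoidal endothelium (1 of 6) and cholangiocytes (1 of 4) were mostly below the brightness limit. At 5000 µM the stellate markers Acta2 and Col3a1 gave -0.32 and -0.31 at 24 h, neither called, and -0.47, called, and -0.30, not called, at 48 h. Epcam, of cholangiocytes, was called higher at 5000 µM and 24 h (0.17) and lower at 48 h at 500 µM (-0.30) and 5000 µM (-0.14), and Kdr, of endothelium, was not called against vehicle. The part of other cell types in the results was not tested, and in bulk RNA fewer cells of a type and less RNA per cell cannot be told apart.

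At 5000 µM and 24 h transcripts of 11 of the 19 tested enzymes of cholesterol synthesis fell, and 0 of the 19 were called higher by limma (1 of 19 was higher at an unadjusted p under 0.05). Of 27 members, 14 were called lower and 1 higher, where a call is an adjusted p under 0.05 from limma, corrected by Benjamini-Hochberg over all 8531 genes. Among all tested genes 38.1% were called in this comparison, 18.6% higher and 19.6% lower. At an unadjusted limma p under 0.05, 1917 of the 8531 were higher and 2024 lower. The arrays of the dose and of vehicle did not overlap in 8 lower members and 1 higher member, against 12.3% and 11.8% of all genes. Besides the enzymes, the lower calls were the regulators Srebf2, Insig1 and Mbtps1, while the single higher call was Npc2, a cholesterol carrier of the lysosome. The median log2 change of the members was -0.23, and that of all tested genes -0.00. The 14 falls ran from -0.23 for Mbtps1 to -0.58 for Srebf2 on the log2 scale.

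After 48 h of the high dose, 9 members were called lower and 2 higher, against 32.6% of all tested genes called, 18% lower and 14.6% higher. Without overlap of arrays 7 were lower and 1 higher, against 13.6% and 11.8% of all genes. Without dose replicate 2 the count was 7, and with arrays centred on their medians it was also 7. The lower calls were Mvk, Pmvk and Mvd of the mevalonate steps, Idi1, Fdft1, Msmo1, Ebp, Srebf2 and Stard4, and the higher calls were Scap and Sc5d. The median log2 change of the members was -0.03, and that of all genes -0.01. After 24 h of the low dose only Pmvk and Cyp51 were called, both lower, against 2.86% of all genes called, 1.65% higher and 1.21% lower (members' median -0.11, all genes -0.02). No member was called higher by limma, and 1 was higher and 10 lower at an unadjusted p under 0.05. Among all 8531 tested genes 602 were higher and 983 lower at that level. Without overlap of arrays 1 member was lower and 0 higher, against 2.43% and 2.32% of all genes.

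After 48 h of the low dose, 7 members were called higher and 10 lower, against 42.6% of all genes called, 24% higher and 18.6% lower. Without overlap of arrays 6 were higher and 8 lower, against 16.1% and 11.3% of all genes. With each array centred on its median, 7 were higher and 5 lower. This group also stood apart in the 3'/5' ratio, and with that ratio as a covariate 2 of the 17 calls remained, Scap and Stard4, with 3.97% of all genes called. Neither Scap nor Stard4 was called when, without the covariate, the probe sets of each gene were averaged. Dose and RNA quality cannot be told apart in this comparison, so its calls are given with that limit. With the ratio as a covariate, 13 of the 15 calls at 5000 µM and 24 h remained (Lss and Mbtps1 did not), and all 11 at 5000 µM and 48 h remained. With only the arrays below the gap, all 15 calls at 5000 µM and 24 h remained and 28.7% of all genes were called. That fit set 4 arrays at 5000 µM against 2 of vehicle, with the spread shared over all groups fitted.

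**Figure D1:**
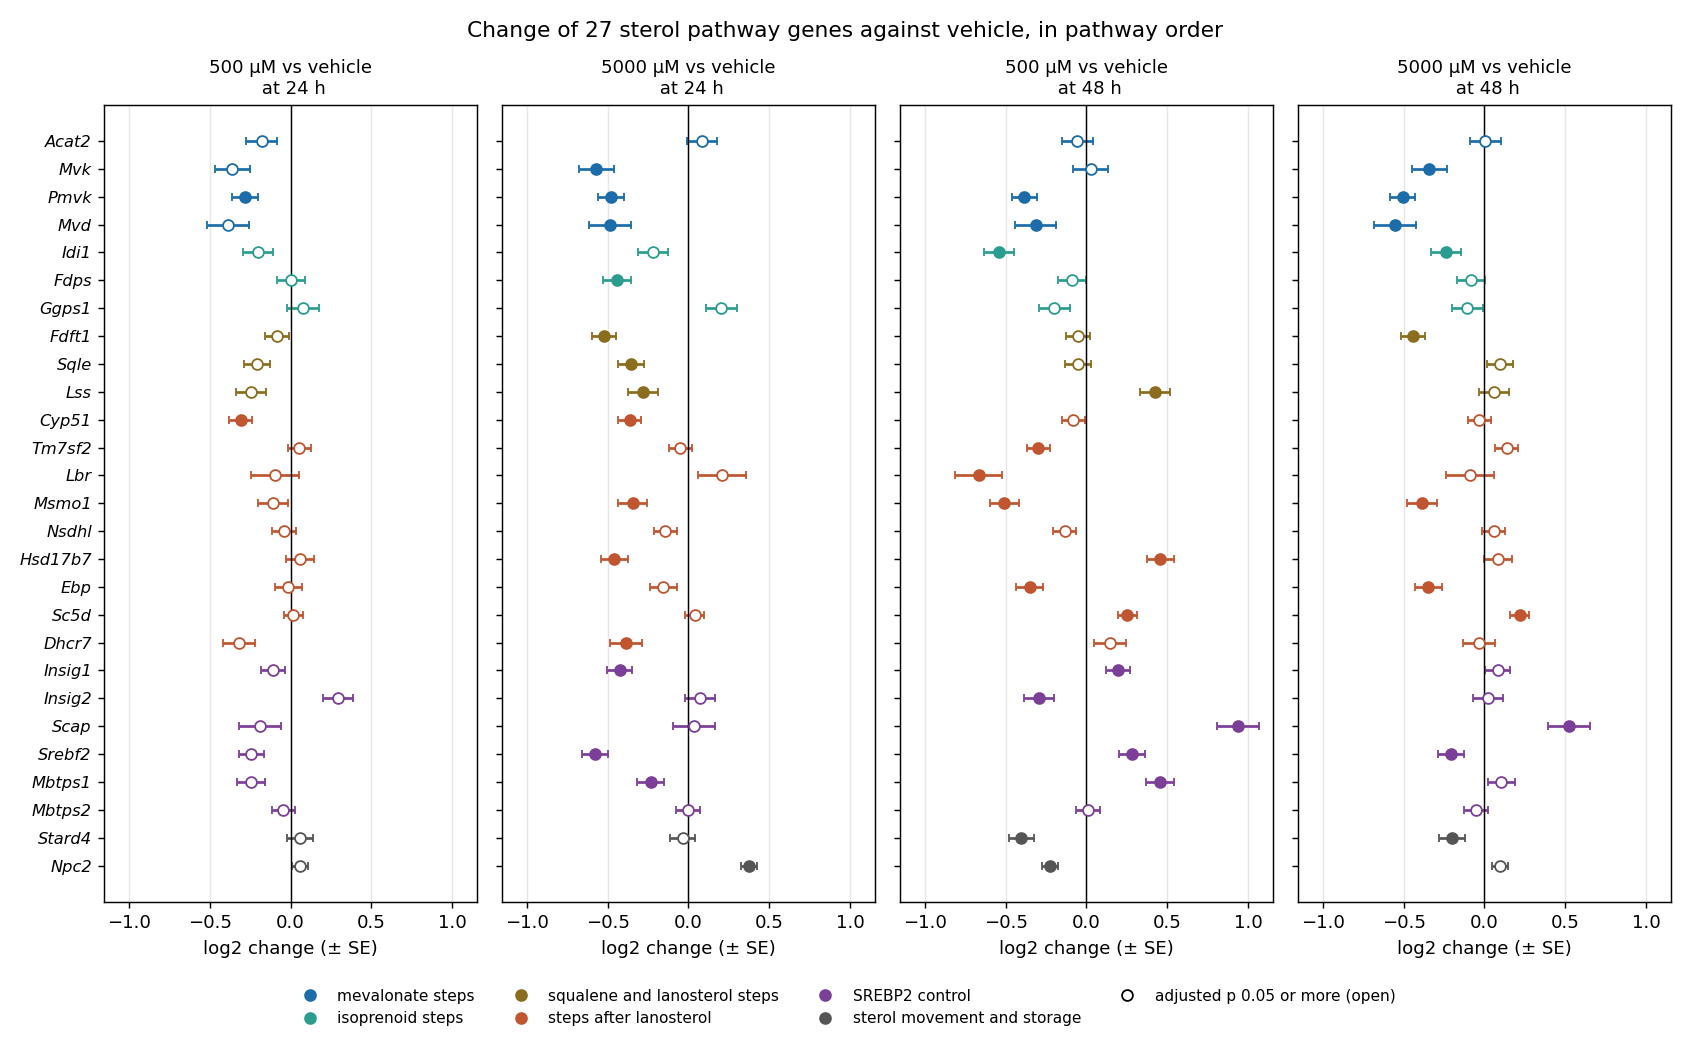
Log2 change against vehicle (x axis, ± SE) of 27 tested members in pathway order (y axis), in 1 panel for each dose and time; filled points have an adjusted p under 0.05 and colours mark the roles. The 14 filled points left of 0 at 5000 µM and 24 h run from the mevalonate steps to the regulator Mbtps1, and at 500 µM and 48 h filled points lie on both sides.

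The mevalonate steps turn acetyl-CoA into isopentenyl diphosphate, and at 5000 µM 3 of their 4 tested genes fell at both times. Mvk, which phosphorylates mevalonate, had 24 h signals of 1734, 1816, 1893, 2173 and 2297 on the vehicle arrays, 1395, 1474, 1492, 1591 and 1757 at 500 µM and 1137, 1217, 1359, 1469 and 1489 at 5000 µM. All arrays at 5000 µM lay below all vehicle arrays. Mvk was 1.49-fold lower (log2 change -0.57, SE 0.11, adjusted p = 8.34e-05). Signals at 48 h were 1563, 1602, 1619, 1629 and 1808 on the vehicle arrays, 1532, 1589, 1634, 1674 and 1969.6 at 500 µM and 918, 1349.6, 1387, 1409 and 1504 at 5000 µM. The 5000 µM arrays again lay wholly below vehicle, while those at 500 µM overlapped it. The 48 h change was -0.34, SE 0.11, adjusted p = 0.0142, and without replicate 2 of that group, the array at 918, it was -0.22 with adjusted p = 0.086.

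Pmvk, the next kinase, was the only member called lower at both doses and both times. At 24 h its signals were 6277, 6517, 6831, 7297 and 8262 on the vehicle arrays, 5331, 5552, 5657, 5907 and 6401 at 500 µM and 4363, 4518, 5108, 5215 and 6083 at 5000 µM. The 5000 µM arrays lay below all vehicle arrays and the 500 µM arrays overlapped them through 1 array. Its log2 changes were -0.28 (SE 0.08) at 500 µM (adjusted p = 0.0434) and -0.48 (SE 0.08) at 5000 µM (adjusted p = 1.19e-05). Its signals at 48 h were 6662, 6685, 6753, 7225 and 7979.7 on the vehicle arrays, 4909, 5353, 5562, 5569 and 5628 at 500 µM and 4553, 4725, 5000.4, 5251 and 5319.9 at 5000 µM. Both doses lay wholly below vehicle at 48 h, with log2 changes of -0.38 (SE 0.08) and -0.51 (SE 0.08). At 500 µM and 48 h Pmvk was no longer called once the model held the β-actin ratio, or a block for its gap. At 5000 µM and 48 h Pmvk stayed called in both of these fits. The call at 500 µM and 24 h was lost without replicate 1, 2 or 5 of the vehicle or replicate 1, 2, 3 or 5 of the dose, with adjusted p from 0.0562 to 0.148.

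Mvd, which makes isopentenyl diphosphate from diphosphomevalonate, had 24 h signals of 1420.2, 1562, 1736, 1775 and 2021 on the vehicle arrays, 1164, 1260.0, 1289, 1342 and 1428 at 500 µM and 1079.9, 1108, 1264, 1285 and 1326 at 5000 µM. Arrays at 5000 µM lay wholly below vehicle, and 1 array at 500 µM lay above the lowest vehicle array. Its log2 change was -0.48, SE 0.13, adjusted p = 0.00315 at 5000 µM, and at 500 µM it was -0.39 and not called (adjusted p = 0.0984). Signals at 48 h were 1387, 1406, 1408, 1537 and 1942 on the vehicle arrays, 897, 1166, 1309, 1331 and 1510.4 at 500 µM and 806, 886, 1130.1, 1153 and 1299.7 at 5000 µM. At 5000 µM all arrays lay below vehicle and the gene was 1.47-fold lower (log2 change -0.55, SE 0.13, adjusted p = 0.00111). The call at 500 µM and 48 h (log2 change -0.31, SE 0.13, adjusted p = 0.0488) was lost when any of 6 single arrays was left out (vehicle replicate 1, 3 or 5, dose replicate 1, 2 or 5), with log2 changes from -0.34 to -0.20.

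Acat2, which joins acetyl-CoA units at the entrance of the pathway, was not called against vehicle. Its 24 h signals were 6326, 7777, 7841, 9581 and 9669.8 on the vehicle arrays, 6316, 6901, 7280.3, 7344 and 8240.0 at 500 µM and 7049.6, 8162, 8485, 9826 and 9994 at 5000 µM. At 48 h they were 6917, 6959, 7427, 7447 and 7459 on the vehicle arrays, 6083, 6771, 7242, 7368 and 7454 at 500 µM and 6621, 7252, 7305, 7538 and 7669 at 5000 µM. The groups overlapped at both times, and the changes against vehicle were -0.18, 0.08, -0.06 and 0.01 for the low and high dose at 24 h and then at 48 h. The 95% interval of the change at 5000 µM was -0.11 to 0.28 at 24 h and -0.19 to 0.20 at 48 h.

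**Figure D2:**
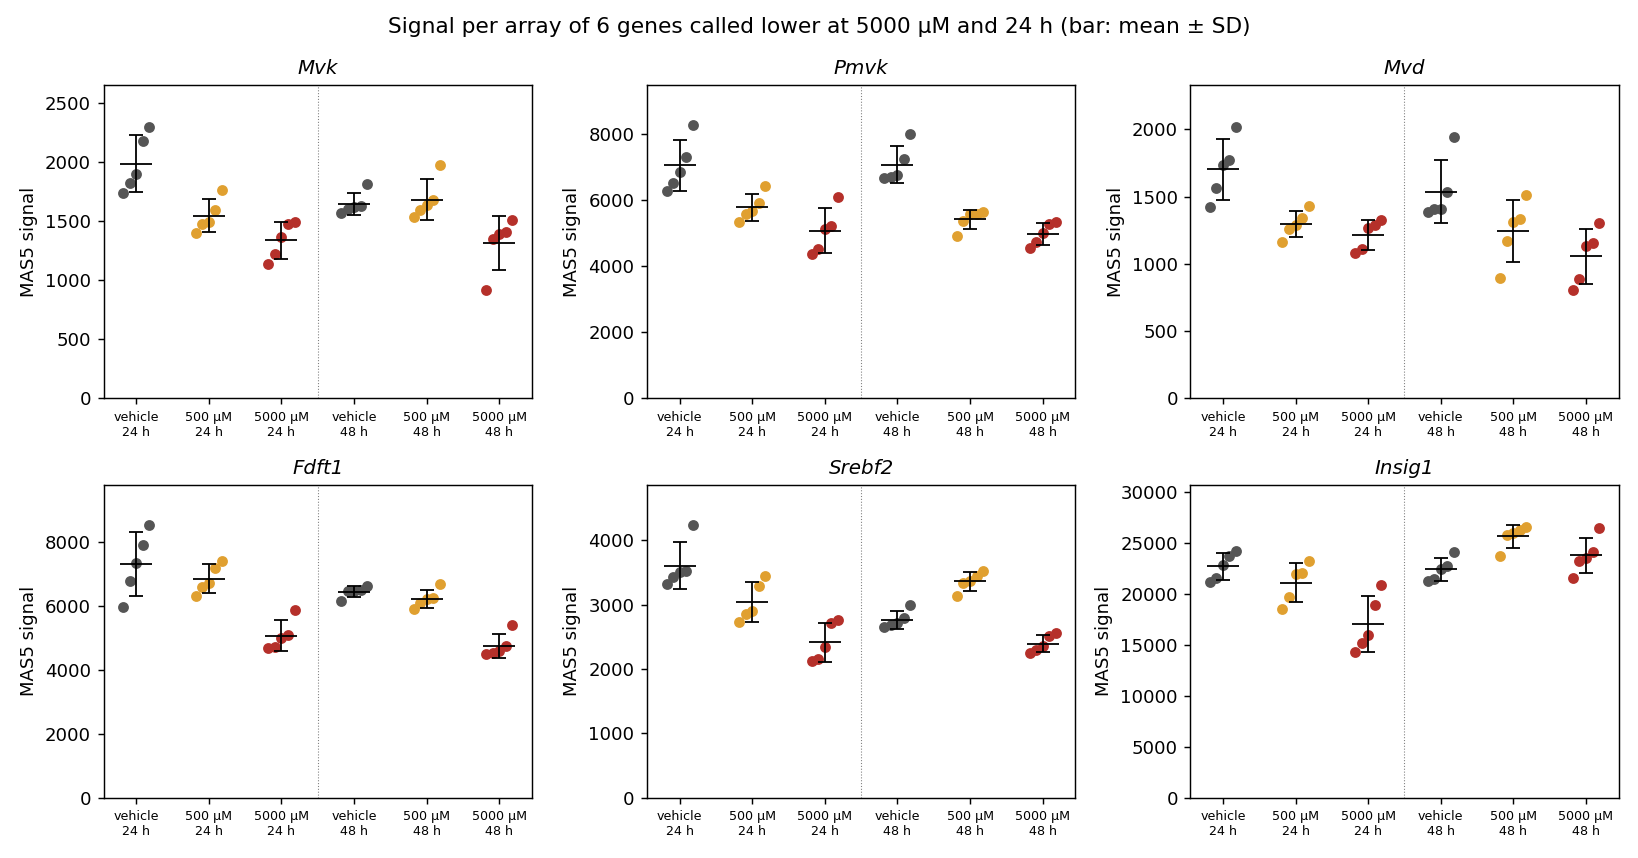
MAS5 signal (y axis, linear, from 0) on each of 5 arrays per group for 6 members called lower at 5000 µM and 24 h, with the group mean ± SD as bars. In Mvk, Pmvk, Mvd, Fdft1, Srebf2 and Insig1 all 5 arrays at 5000 µM and 24 h lie below the 5 vehicle arrays, and Insig1 averages 23800.0 ± 1754 there at 48 h.

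The isoprenoid steps join isoprene units. Of their 3 tested genes, Fdps was called lower at 5000 µM and 24 h, Idi1 was called lower at both doses at 48 h, and Ggps1 was not called against vehicle. Fdps, which makes farnesyl diphosphate, the last precursor shared with protein prenylation, dolichol and ubiquinone, had 24 h signals of 30724, 37632, 40189, 41690.3 and 46087 on the vehicle arrays, 34544, 37486, 39309, 41125 and 43169 at 500 µM and 26263, 26556, 29281, 29669 and 31921 at 5000 µM. Every vehicle array but the lowest lay above all arrays at 5000 µM. Fdps was 1.36-fold lower (log2 change -0.44, SE 0.08, adjusted p = 9.93e-05) and at 500 µM its change was 0.00. The 48 h signals were 35280.4, 35911, 35963, 40562 and 41723 on the vehicle arrays, 33156, 34266, 36096, 36598 and 37566 at 500 µM and 32831, 33114, 33128, 37088 and 43351 at 5000 µM. The 48 h groups overlapped, with changes of -0.09 and -0.08 and no call.

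Idi1, the isomerase that makes dimethylallyl diphosphate, had 24 h signals of 12581, 15016, 15547, 15839 and 16660.1 on the vehicle arrays, 11971, 12085, 12987, 13184 and 15435 at 500 µM and 10723, 12196, 12617, 13541 and 16105 at 5000 µM. The groups overlapped, and neither change (-0.20 and -0.22) was called. Its other probe set gave -0.40, not called, at 500 µM and -0.35, called lower, at 5000 µM. The 48 h signals were 13099, 13255, 13634, 14170.4 and 14598 on the vehicle arrays, 8079, 9102, 9619, 9739 and 10883 at 500 µM and 10526, 10905, 11386, 11597 and 14211 at 5000 µM. All arrays at 500 µM lay below vehicle (log2 change -0.54, SE 0.09, adjusted p = 3.94e-05), and at 5000 µM 1 array overlapped it (log2 change -0.24, SE 0.09, adjusted p = 0.0481). With the ratio as a covariate the change at 500 µM was -0.38 (adjusted p = 0.0855). The 48 h call at 5000 µM was lost without any single array of either group except replicate 5 of 5000 µM, with adjusted p from 0.0531 to 0.131. Ggps1, which makes geranylgeranyl diphosphate, had changes from -0.20 to 0.20.

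The squalene and lanosterol steps, the first committed to sterols, were all 3 called lower at 5000 µM and 24 h. Fdft1, squalene synthase, had 24 h signals of 5982, 6776, 7349, 7917 and 8539.6 on the vehicle arrays, 6322, 6599.9, 6723, 7198 and 7420.4 at 500 µM and 4678, 4725, 4991, 5093 and 5885 at 5000 µM. All arrays at 5000 µM lay below vehicle, and those at 500 µM overlapped it. Fdft1 was 1.44-fold lower at 5000 µM (log2 change -0.52, SE 0.07, adjusted p = 1.10e-06). The 48 h signals were 6157, 6469, 6472, 6508 and 6625 on the vehicle arrays, 5912, 6096, 6209.6, 6260.1 and 6682 at 500 µM and 4514, 4538, 4581, 4754 and 5395 at 5000 µM. The 5000 µM arrays lay wholly below vehicle again (log2 change -0.44, SE 0.07, adjusted p = 1.76e-05), with -0.05 at 500 µM. Its second probe set fell too, by 0.75 at 24 h and 0.53 at 48 h on the log2 scale.

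Sqle, squalene epoxidase, a rate-controlling step, had 24 h signals of 10489, 11101, 11367, 11825 and 11856 on the vehicle arrays, 8364, 9204, 9631, 10990.5 and 11075 at 500 µM and 8015, 8258, 8275, 8559.7 and 11479.5 at 5000 µM. At 5000 µM 4 of 5 arrays lay below all vehicle arrays and the other lay among them. Its log2 change was -0.36, SE 0.08, adjusted p = 6.68e-04, and at 500 µM it was -0.21. Its signals at 48 h were 10634, 10889, 10907, 10989 and 11176 on the vehicle arrays, 9226, 10337, 10919, 11021 and 11221 at 500 µM and 10624, 10937, 11812, 12249.5 and 12983 at 5000 µM. The groups overlapped at 48 h with changes of -0.05 and 0.10. Lss, which closes the ring to lanosterol, was 3361 ± 401 in vehicle and 2767 ± 359.6 at 5000 µM at 24 h (log2 change -0.28, SE 0.09, overlapping arrays). At 48 h it was 2424 ± 212 in vehicle and 3251 ± 274 at 500 µM, with every dosed array higher (log2 change 0.42, SE 0.09). The fall at 24 h was not called without vehicle replicate 2 (adjusted p = 0.0629) or 5000 µM replicate 3 (0.0628).

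Of the 9 tested genes after lanosterol, Cyp51, Msmo1, Hsd17b7 and Dhcr7 fell at 5000 µM and 24 h. Tm7sf2, Lbr, Nsdhl, Ebp and Sc5d were not called by limma, and with the chosen probe sets 0 of the 9 were higher even at an unadjusted p under 0.05. Both other Sc5d probe sets were called higher there, at 0.28 and 0.21, while the chosen one gave 0.04. Cyp51, the lanosterol 14-demethylase, had 24 h signals of 10728, 11402, 11545, 12079 and 13887 on the vehicle arrays, 8417, 9209, 9760.1, 10267 and 10542 at 500 µM and 8498, 9069.5, 9281, 9348 and 10096 at 5000 µM. Both doses lay wholly below vehicle. The log2 changes were -0.31, SE 0.07, adjusted p = 0.0132 at 500 µM and -0.36, SE 0.07, adjusted p = 1.33e-04 at 5000 µM, and its second probe set gave -0.52 at both. Its signals at 48 h were 9211, 9361, 9677, 9730.5 and 11059 on the vehicle arrays, 8799, 8972, 9221, 9560.2 and 9715 at 500 µM and 8589.8, 8934, 9583, 9892 and 11104 at 5000 µM. The 48 h groups overlapped, with changes of -0.08 and -0.03. The call at 500 µM was lost without vehicle replicate 2 (adjusted p = 0.0614) or dose replicate 5 (adjusted p = 0.07).

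Msmo1, the methylsterol oxidase that removes the 4-methyl groups, fell in 3 of the 4 comparisons with vehicle. Its 24 h signals were 14918, 19016, 19399, 21079 and 22295 on the vehicle arrays, 15608, 16966, 17500.4, 18407 and 20880.4 at 500 µM and 13004, 14706, 15238, 15437 and 17349 at 5000 µM. The lowest vehicle array lay within the range at 5000 µM, where the change was -0.35, SE 0.09, adjusted p = 0.00295. Signals at 48 h were 18167, 19427, 19464, 19472 and 22063 on the vehicle arrays, 12373, 12602, 13828, 14969 and 15788 at 500 µM and 14097, 14126, 14203, 15905 and 17124 at 5000 µM. Both doses lay wholly below vehicle at 48 h, with log2 changes of -0.51 (SE 0.09) at 500 µM and -0.39 (SE 0.09) at 5000 µM. The 500 µM change was -0.28 with the ratio as a covariate and not called (adjusted p = 0.183).

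Lbr, the lamin B receptor with sterol 14-reductase activity, was called only at 500 µM and 48 h. Its 48 h signals were 634, 715, 806, 811 and 847 on the vehicle arrays, 411, 443, 478, 479.7 and 596 at 500 µM and 570.3, 665, 702, 822 and 836 at 5000 µM. The 500 µM arrays lay wholly below vehicle and the gene was 1.59-fold lower (log2 change -0.67, SE 0.15, adjusted p = 6.90e-04). With the ratio as a covariate the change was -0.55 and not called (adjusted p = 0.143). Its 24 h signals were 449, 525, 593, 623 and 737 on the vehicle arrays, 444, 448, 574, 609 and 669 at 500 µM and 532, 591, 723, 741 and 791 at 5000 µM. These overlapped, with changes of -0.09 and 0.21. Tm7sf2, the other sterol 14-reductase, changed by -0.30 at 500 µM and 48 h (called, every array lower) and by 0.14 at 5000 µM. The Tm7sf2 call was lost with the ratio as a covariate.

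Hsd17b7, the 3-ketosteroid reductase, fell from 5902 ± 287 (SD, n = 5) in vehicle to 4313 ± 524 at 5000 µM and 24 h, with every dosed array lower (log2 change -0.46, SE 0.08). Its log2 change at 500 µM and 48 h was 0.46, where its second probe set gave -0.05 and the call was lost with the ratio as a covariate. Dhcr7, the last reductase on this list, was 18441 ± 3402 in vehicle and 14012 ± 1616 at 5000 µM and 24 h (log2 change -0.38, SE 0.10, overlapping arrays) and was not called at 48 h. Ebp, the sterol isomerase, was lower at both doses at 48 h, with all arrays below vehicle and log2 changes of -0.35 (SE 0.08) and -0.35 (SE 0.08). The 500 µM call of Ebp was lost with the ratio as a covariate. Sc5d, the 5-desaturase, was the enzyme called higher at 5000 µM and 48 h, from 11184 ± 303 to 13037 ± 867, with every array above vehicle (log2 change 0.22, SE 0.06). Its other probe sets gave 0.28 and 0.30 at that dose and time, and with arrays centred on their medians Sc5d was not called there (adjusted p = 0.0629). At 500 µM and 48 h Sc5d was also called higher (0.25), a call lost with the ratio as a covariate. Both of its other probe sets had the opposite sign there, neither called. Nsdhl, the decarboxylating dehydrogenase, was not called against vehicle, although its second probe set fell by 0.65 at 5000 µM and 24 h.

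In the control of SREBP2, the transcript of the factor fell at 5000 µM. Srebf2 had 24 h signals of 3317, 3427, 3508, 3525 and 4238 on the vehicle arrays, 2727, 2858, 2903, 3295 and 3452 at 500 µM and 2120.0, 2156, 2343, 2717 and 2755 at 5000 µM. All arrays at 5000 µM lay below all vehicle arrays, and those at 500 µM overlapped both. Srebf2 was 1.49-fold lower (log2 change -0.58, SE 0.08, adjusted p = 5.18e-07), the largest fall of a member in that comparison. The 48 h signals were 2648, 2689, 2712, 2787 and 2997 on the vehicle arrays, 3135, 3338, 3375, 3443 and 3527 at 500 µM and 2255, 2297, 2360.1, 2521 and 2554 at 5000 µM. All 5000 µM arrays lay below vehicle and all 500 µM arrays above it. The 48 h changes were -0.21, SE 0.08, adjusted p = 0.0414 at 5000 µM and 0.28, SE 0.08, adjusted p = 0.00482 at 500 µM, the latter 0.09 and not called with the ratio as a covariate. That call at 5000 µM was lost with arrays centred on their medians (adjusted p = 0.128) or when vehicle replicate 1, 2, 3 or 4 or dose replicate 2, 3 or 4 was left out, with adjusted p from 0.052 to 0.108. The second Srebf2 probe set was dim (geometric mean signal 75.2) and changed by -0.00 at 5000 µM and 24 h with an SE of 0.51.

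Scap, the sterol sensor that escorts SREBP2, was called at 48 h only. Its 24 h signals were 1901, 1902, 1952, 2034 and 2490.3 on the vehicle arrays, 1475, 1620.2, 1778, 1999.9 and 2169.5 at 500 µM and 1694, 1928, 2042, 2441 and 2448 at 5000 µM. These overlapped, with changes of -0.19 and 0.03. Its signals at 48 h were 1029.7, 1175, 1363, 1522 and 1631 on the vehicle arrays, 2241, 2352, 2459, 2594 and 3113 at 500 µM and 1555, 1720.0, 1934, 2105 and 2307 at 5000 µM. Every array at 500 µM lay above vehicle, and 4 of 5 at 5000 µM lay above all vehicle arrays. Scap was 1.91-fold higher at 500 µM (log2 change 0.94, SE 0.13, adjusted p = 2.79e-06) and 1.44-fold higher at 5000 µM (log2 change 0.52, SE 0.13, adjusted p = 0.00195). With the ratio as a covariate the 500 µM value was 0.59 (adjusted p = 0.0337) and the 5000 µM value 0.54 (adjusted p = 3.65e-04). The vehicle itself had fallen from 2056 ± 249 at 24 h to 1344 ± 246 at 48 h, and the 48 h arrays at 5000 µM averaged 1924 ± 299. The second Scap probe set (geometric mean signal 322) gave -0.25 at 500 µM and -0.14 at 5000 µM, neither called.

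Insig1, which retains SCAP in the endoplasmic reticulum and is itself an SREBP target, was called lower at 5000 µM and 24 h only. It averaged 22726 ± 1310.2 in vehicle and 17069 ± 2757 at 5000 µM, with every dosed array lower (log2 change -0.43, SE 0.08). The 48 h means were 22444 ± 1146 for vehicle, 25684 ± 1142 for the low dose and 23800.0 ± 1754 for the high dose. The small 48 h rise at 500 µM (0.19, SE 0.08) was not called when any of 8 single arrays (vehicle replicates 2 to 5, dose replicates 1, 2, 4 and 5) was left out, with adjusted p from 0.0517 to 0.0874. Mbtps1, the site-1 protease, fell by 0.23 on the log2 scale at 5000 µM and 24 h, not called with the ratio as a covariate (adjusted p = 0.503) or without vehicle replicate 1 or 5 or dose replicate 3, 4 or 5 (adjusted p from 0.0592 to 0.11). Its log2 change was 0.45 at 500 µM and 48 h, with every array above vehicle, and the call there was lost with the ratio as a covariate. Mbtps2, the site-2 protease, was not called in any comparison with vehicle, with changes from -0.05 to 0.01.

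Insig2, the second retention protein, gave no single direction. Its chosen probe set had 24 h signals of 20200.1, 23262, 24182, 24837 and 27921 on the vehicle arrays, 26632, 26689, 28088, 31664 and 34660.0 at 500 µM and 22084, 22459, 25544, 26641 and 29623 at 5000 µM. At 48 h they were 22679, 25942, 25973, 26771 and 28576 on the vehicle arrays, 17696, 19422, 22424, 22832 and 24131 at 500 µM and 24118, 24393, 26587, 27397 and 29379.9 at 5000 µM. At 24 h the arrays at 5000 µM overlapped vehicle, and at 48 h those at 500 µM lay mostly below it. The chosen probe set changed by 0.07 at 5000 µM and 24 h and by -0.29 at 500 µM and 48 h, and the other probe set by -0.44 and 0.29, both called. Insig2 is therefore not described as changed, although it is 1 of the 17 calls at 500 µM and 48 h, a call lost without dose replicate 3 (adjusted p = 0.0552).

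Of the genes that move or store sterol, Npc2 rose at 5000 µM and 24 h and the dim Soat1 was higher at 5000 µM at both times. Npc2, which passes cholesterol from lysosomal lipoproteins to the membrane, had 24 h signals of 10500.1, 10960.0, 11064, 11280.4 and 11503 on the vehicle arrays, 11164, 11383, 11429, 11721 and 11777 at 500 µM and 13829.5, 14057, 14426, 14597 and 14792 at 5000 µM. Every array at 5000 µM lay above every vehicle array. Npc2 was 1.3-fold higher (log2 change 0.37, SE 0.05, adjusted p = 3.12e-07). The 48 h signals were 12834, 13074, 13437, 13493 and 14663 on the vehicle arrays, 10717, 10792, 11637, 12047 and 12495 at 500 µM and 13643, 13707, 13884, 15409 and 15414 at 5000 µM. The 500 µM arrays lay wholly below vehicle (log2 change -0.23, SE 0.05; -0.17 and not called with the ratio as a covariate) and the 5000 µM arrays overlapped it (0.09, not called). Stard4, a cytosolic sterol carrier, was called lower at 48 h, with log2 changes of -0.40 at 500 µM, where every array lay below vehicle, and -0.20 at 5000 µM. The Stard4 change at 500 µM was -0.47 with the ratio as a covariate (adjusted p = 0.0116), and its other probe sets gave -0.35 and 0.06, neither called. The 5000 µM call was lost with arrays centred on their medians (adjusted p = 0.112) and without vehicle replicate 1, 2 or 3 or dose replicate 1, 2, 3 or 5, with adjusted p from 0.053 to 0.127.

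Soat1, which esterifies cholesterol for storage in droplets, was below the brightness limit and was singled out after its values were seen. Its 24 h signals were 75.9, 77.2, 87.3, 153 and 179 on the vehicle arrays, 32.2, 121, 122, 123 and 176 at 500 µM and 317, 416, 565, 582 and 737 at 5000 µM. At 48 h they were 123, 170.1, 181, 236 and 241 on the vehicle arrays, 179.6, 202, 213, 231 and 243 at 500 µM and 556, 566, 640.3, 695 and 825 at 5000 µM. Every array at 5000 µM lay above every vehicle array and every 500 µM array of its time. In a fit of all 14217 genes with no brightness limit, its log2 change was 2.23 at 24 h (SE 0.33, adjusted p = 4.06e-06, with 23.2% of all genes called) and 1.82 at 48 h (SE 0.33, adjusted p = 9.44e-05, with 19.4% called). Whether its vehicle signals lay above background was not tested, so no fold is given. At 500 µM its changes were -0.09 and 0.20 and not called. Its second probe set, dimmer still (geometric mean signal 66.1), gave 0.68 and 0.65 at 5000 µM, neither called.

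**Figure D3:**
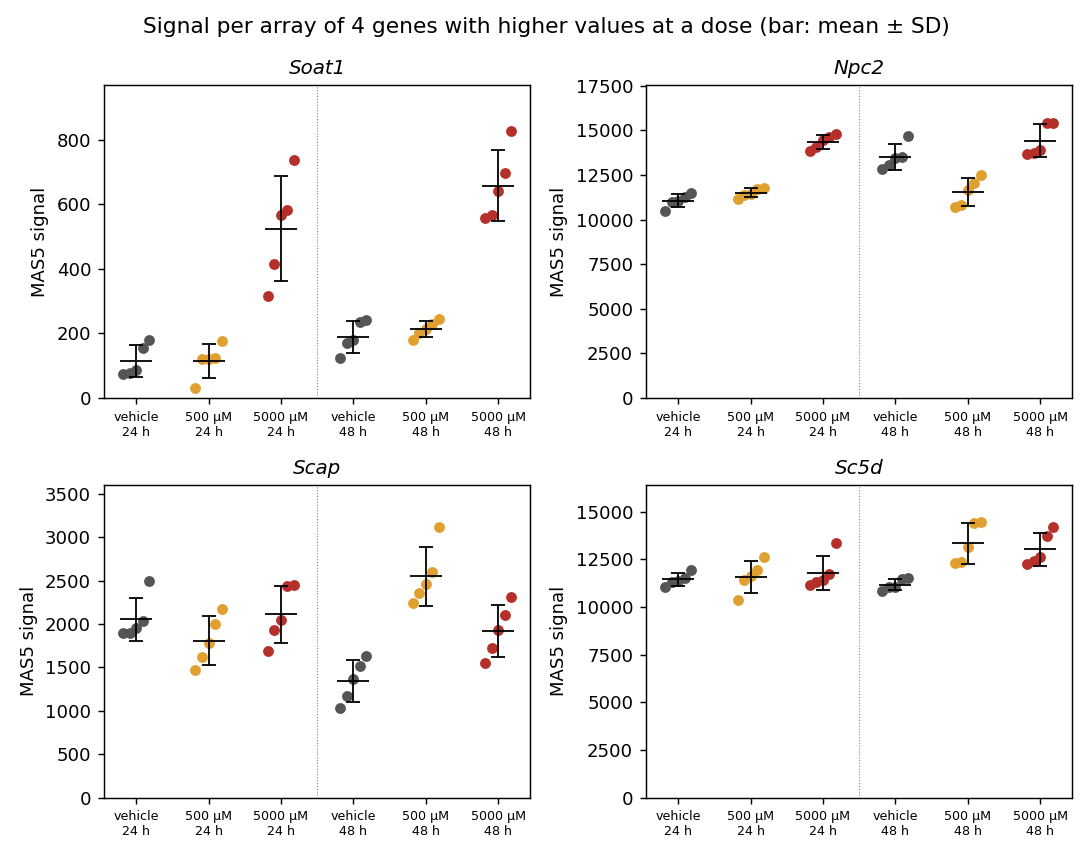
MAS5 signal (y axis, linear, from 0) on each of 5 arrays per group for 4 members with higher values at a dose, with the group mean ± SD as bars. Soat1 at 5000 µM averages 524 ± 162 at 24 h against 115 ± 48.3 in vehicle, and Npc2 at 5000 µM and 24 h lies above every vehicle array.

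The doses were also compared with each other. At 24 h, 2 members were higher and 6 lower at 5000 than at 500 µM, against 31.2% of all genes called, 16.8% higher and 14.3% lower (1 and 6 with arrays centred on their medians). Without overlap of arrays 1 member was higher and 3 were lower, against 10.2% and 9.18% of all genes. The called lower genes were Fdps, Fdft1, Msmo1, Hsd17b7, Insig1 and Srebf2, and the higher genes Npc2 and Acat2. Hsd17b7 differed by -0.52 (SE 0.08) and Fdft1 by -0.44 (SE 0.07), with all 5000 µM arrays below all 500 µM arrays in both. For Pmvk, Mvk, Mvd and Cyp51 the difference between doses was not called, with differences of -0.20, -0.21, -0.10 and -0.06 and 95% intervals of -0.36 to -0.04, -0.43 to 0.01, -0.36 to 0.16 and -0.20 to 0.09. At 48 h, 7 members were higher and 7 lower, against 47.6% of all genes called, 19.4% higher and 28.2% lower (3 and 7 members with arrays centred), and with the ratio as a covariate 4 were called. Without overlap of arrays 2 were higher and 6 lower at 48 h, against 12.9% and 20% of all genes.

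In vehicle wells alone, 3 members were higher and 6 lower at 48 than at 24 h, against 32.5% of all genes called, 13.4% higher and 19% lower (0 and 7 members with arrays centred on their medians). Without overlap of arrays 1 was higher and 5 were lower, against 9.31% and 13.5% of all genes. Scap (-0.63), Lss (-0.47), Mbtps1 (-0.44), Hsd17b7 (-0.44), Srebf2 (-0.38) and Cyp51 (-0.28) were lower, and Lbr (0.39), Npc2 (0.29) and Ggps1 (0.25) were higher. The β-actin ratio was lower at 48 h by 0.53 (as a difference of -0.53, exact permutation p = 0.00794, adjusted p = 0.0185), and with it as a covariate 1 member was called. With only the arrays below the gap (2 at 24 h and 5 at 48 h) 7 were called, against 14.8% of all genes.

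The effect of 5000 µM differed between the times in 7 members, against 16.4% of all genes called, 7.74% with a higher and 8.66% with a lower value at 48 h. In 6 of them the 48 h value lay above the 24 h value (4 and 0 with arrays centred), by 0.54 (SE 0.12) in Hsd17b7, 0.51 (SE 0.11) in Insig1, 0.46 (SE 0.11) in Sqle, 0.37 (SE 0.11) in Srebf2, 0.36 (SE 0.12) in Fdps and 0.33 (SE 0.10) in Cyp51. The count was 4 without 24 h vehicle replicate 2 and 13 without 24 h dose replicate 1. Npc2 went the other way (-0.28, SE 0.07). From 24 to 48 h the vehicle mean went from 3603 to 2767 in Srebf2 and from 5902 to 4386 in Hsd17b7. In Cyp51 it fell from 11928 to 9808 and in Npc2 it rose from 11061 to 13500. The 5000 µM means of these genes were 2418 and 2397, 4313 and 4621, 9258 and 9621, and 14340 and 14411. In Insig1, Sqle and Fdps the 5000 µM mean rose, from 17069 to 23800, 8917 to 11721 and 28738 to 35902. Their vehicle means were 22726 and 22444, 11327.5 and 10919, and 39264 and 37888. The mevalonate genes Mvk, Pmvk and Mvd and Fdft1 showed no called difference between times (0.23, -0.03, -0.07 and 0.08, with 95% intervals of -0.08 to 0.54, -0.25 to 0.20, -0.44 to 0.30 and -0.13 to 0.29). The effect of 500 µM differed in 17 members, 9 upward and 8 downward, against 36.6% of all genes called, 22.1% and 14.5% (7 and 3 members with arrays centred). With that ratio of β-actin as a covariate limma called 0 of them, and 0.0352% of all genes were called.

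**Figure D4:**
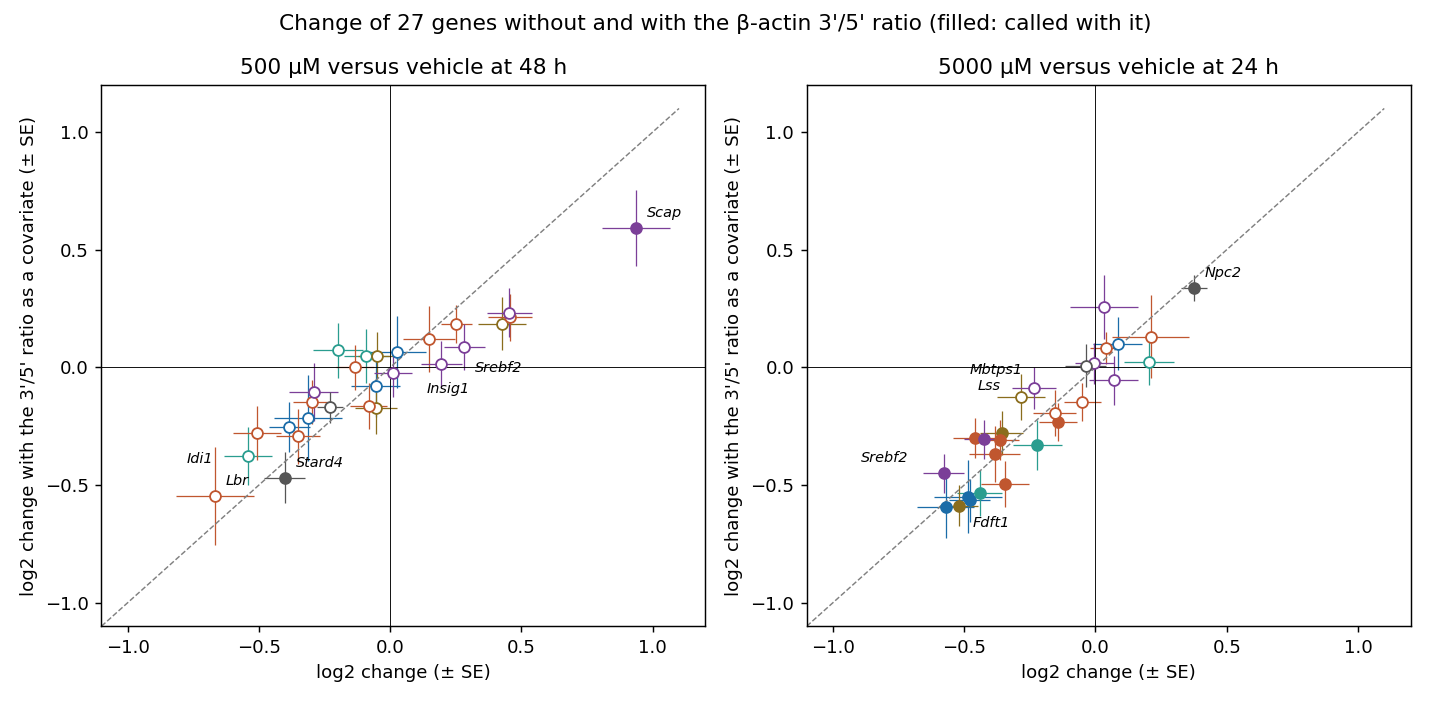
Log2 change against vehicle of 27 members without (x axis) and with (y axis) the β-actin 3'/5' log2 ratio in the model, both ± SE, at 500 µM and 48 h (left) and 5000 µM and 24 h (right); the dashed line marks equal values and filled points are called with the covariate. At 500 µM only Scap and Stard4 are filled, and at 5000 µM 15 points are. Of these 15, 13 were also called without the covariate, and Lss and Mbtps1, called without it, are open.

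Several probe sets were available for 14 of the members. At 5000 µM and 24 h another probe set was called with the sign of the chosen one in 6 genes and against it in 1, Insig2. In Fdft1, Cyp51 and Hsd17b7 the chosen probe set was itself called, lower, and in Idi1, Nsdhl and Sc5d it was not. For Mvk, Lss and Srebf2, also called lower there, no other probe set was called. For the low dose at 48 h another was called with it in 1 gene and against it in 4, Mvk (-0.77 in the other), Cyp51 (0.28), Nsdhl (0.39) and Insig2. For the high dose at 48 h another was called with it in 2 and against it in 1, Hsd17b7 (-0.25, against 0.08). When the probe sets of a gene were averaged, Mvk (-0.49) and Srebf2 (-0.29) were not called at 5000 µM and 24 h. This averaging left Mvk (-0.42), Idi1 (-0.20), Scap (0.19), Srebf2 (0.16) and Stard4 (-0.01) without a call at 5000 µM and 48 h. At 500 µM and 48 h it kept 10 of the 17 calls, with Scap and Stard4 among those lost.

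**Figure D5:**
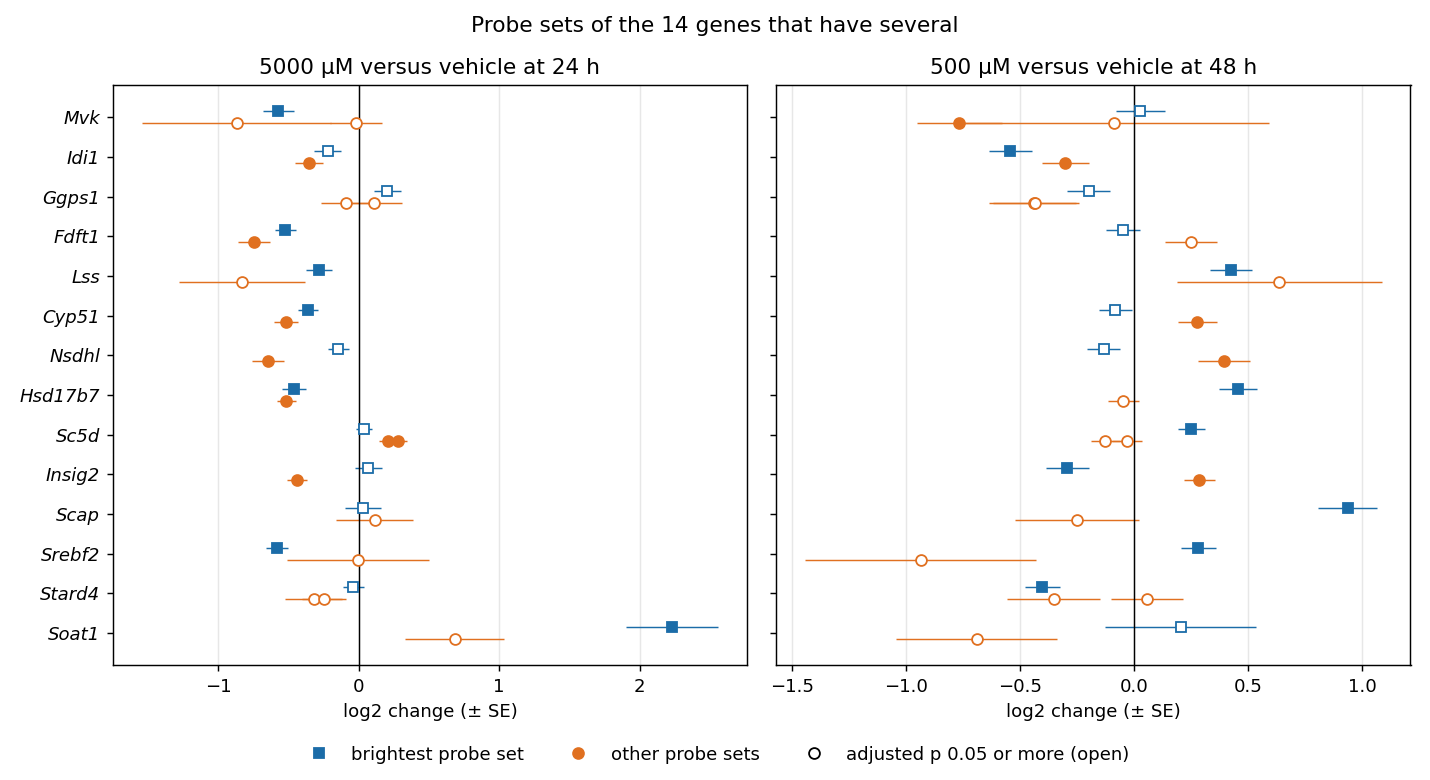
Log2 change against vehicle (x axis, ± SE) of each probe set of the 14 members with several (y axis), at 5000 µM and 24 h (left) and 500 µM and 48 h (right); squares are the brightest probe set, circles the others, and filled symbols have an adjusted p under 0.05 over all probe sets. At 500 µM and 48 h the symbols of Mvk, Cyp51, Nsdhl and Insig2 lie on both sides of 0.

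Genes around the pathway were counted from 5 further lists, and their values at 500 µM and 48 h carry the limit of RNA quality given above. The shares of all tested genes to read them against are 38.1% called at 5000 µM and 24 h (18.6% higher, 19.6% lower), 32.6% at 5000 µM and 48 h (14.6% higher, 18% lower), 2.86% at 500 µM and 24 h and 42.6% at 500 µM and 48 h. At an unadjusted limma p under 0.05, 602 of the 8531 genes were higher and 983 lower at 500 µM and 24 h. These counts were 2371 and 1885 at 500 µM and 48 h, and 1583 and 1871 at 5000 µM and 48 h. Of 5 tested genes of oxysterol sensing and removal, 4 were called lower and 1 higher at 5000 µM and 24 h, and 3 lower and 0 higher at 48 h (0 higher also at an unadjusted p under 0.05), which is 100% and 60% of the list. Cyp7a1, which starts the conversion of cholesterol to bile acids, was 1527 ± 403 in vehicle and 387 ± 112 at 5000 µM and 24 h (log2 change -1.99, SE 0.19, adjusted p = 7.56e-10) and changed by -1.28 at 48 h. Nr1h3, the oxysterol receptor LXR-alpha, was 5444 ± 227 and 2743 ± 218 (log2 change -0.99, SE 0.08, adjusted p = 1.37e-11) and changed by -0.63 at 48 h. Cyp39a1, an oxysterol hydroxylase, fell by 1.17 on the log2 scale at 24 h. At 500 µM limma called 0 of 5 at 24 h (1 lower at an unadjusted p under 0.05) and 2 were higher at 48 h, Cyp7a1 (0.75) and Cyp39a1 (0.78).

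Of 14 tested genes of sterol uptake, transport and efflux, 7 were higher and 3 lower at 5000 µM and 24 h (71.4%, against 38.1% of all genes), and 6 higher and 3 lower at 48 h (64.3%, against 32.6%). Scarb1, the HDL receptor (-0.41 and -0.48), Vldlr (-0.60 and -0.43) and Osbp, an oxysterol-binding lipid exchanger (-0.82 and -0.52), were the genes that fell. At 500 µM limma called 2 higher and 0 lower at 24 h (4 and 2 at an unadjusted p under 0.05), and 9 higher and 0 lower at 48 h (9 and 0). The 2 at 24 h were the sterol exporters Abcg1 and Abcg5, which were called higher at both doses and both times. At 24 h Abcg1 averaged 1162 ± 208 for vehicle, 1698 ± 228 for the low dose and 1535 ± 234 for the high dose, with log2 changes of 0.55 and 0.41, and 0.84 and 0.69 at 48 h. Abcg5 changed by 0.57, 0.49, 0.40 and 0.77 in the same order. Lrp1, a lipoprotein remnant receptor, was higher at 48 h, by 1.28 at 500 µM and 0.93 at 5000 µM.

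Of 12 tested sterol-sensing and degradation factors, 1 was higher and 5 lower at 5000 µM and 24 h, and 1 and 1 at 48 h. These are 50% against 38.1% of all genes at 24 h, and 16.7% against 32.6%, a lower share, at 48 h. Srebf1, which encodes the SREBP form that drives fatty acid synthesis, was 4268 ± 239 in vehicle and 2729 ± 453 at 5000 µM and 24 h (log2 change -0.66, SE 0.11, adjusted p = 1.83e-05). Prkaa1, a catalytic subunit of AMPK, changed by -0.50 there, and Erlin1, which binds sterol-regulated membrane proteins, by -0.46. At 500 µM limma called 0 at 24 h (1 higher and 2 lower at an unadjusted p under 0.05), and 6 were higher and 1 lower at 48 h, with Srebf1 at 0.90. Of 8 tested genes of carbon and electron supply, Me1 (-0.33), which makes NADPH, and Cyb5a (-0.25), an electron donor to sterol enzymes, were called lower at 5000 µM and 24 h, and 2 were higher at 48 h. At 500 µM limma called 0 of these at 24 h (1 lower at an unadjusted p under 0.05) and 5 higher at 48 h. Of 13 tested genes of the isoprenoid branches, 2 were higher and 2 lower at 5000 µM and 24 h, and 4 higher and 1 lower at 48 h. These shares, 30.8% and 38.5%, lie near the 38.1% and 32.6% of all genes. At 500 µM limma called 0 of the 13 at 24 h (1 lower at an unadjusted p under 0.05), and 2 higher and 2 lower at 48 h.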

How the data were processed

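Total RNA of 30 culture wells in 6 groups of dose and time (n = 5) was measured on 1 single-colour Affymetrix rat array per well, and each title gave its sample's group. The deposited values are linear signal intensities, 1 for every probe set. The algorithm MAS5 is named, without a version, per the submitters' processing notes, while a target for scaling and the settings of the scanner were not given in the sources used here. Per array the mean with 2% trimmed from each end ran only from 1500.55 to 1500.66, so the deposited intensities had already been brought to 1 level, and they were taken to log2 with no further scaling. Of 31099 probe sets, 57 were controls, 20826 named 1 gene symbol, 436 named several and 9780 were unnamed. Symbols of 20758 probe sets were updated through Entrez identifiers to rat RefSeq (GRCr8), and a probe set with more than 1 symbol named none.

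The brightest probe set stood for a gene, and the brightest 60% of 14217 genes (8531, down to a geometric mean signal of 469) were tested. With limma 3.58.1 (R 4.3.3), 1 model of the 6 group means took in all 30 arrays. It had 24 residual degrees of freedom, to which eBayes with an intensity trend added 7.58. Adjusted p-values are Benjamini-Hochberg values over all genes tested, with a threshold of 0.05. The 9 comparisons were each dose against vehicle, the doses against each other, the times in vehicle and the difference of each dose's effect between times. The fit was tested on simulated data. Array numbers are few, which limits the precision. The β-actin ratio was compared with exact two-sided permutation tests in Python 3.11.15 with scipy 1.17.1.

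The members, the lists of other pathway genes and markers, and this procedure were chosen with earlier results of these data known, and nothing rests on that choice as independent support. Some genes of the pathway are not reported here. Values of every array are given, in rising order, for the member with the brightest probe set of each role. They are also given for the 3 members with the largest called change in each comparison with vehicle. Replicate numbers follow the serial numbers in the titles, so arrays with the same replicate number belong to the same set of serial numbers, described below. Of the other pathway lists, called genes among the 3 largest changes in a direction were named. Alternatives were other scalings, no brightness limit, the mean of all probe sets, an offset of 64, the 3'/5' ratio as a covariate or block, fits of only the groups compared, arrays on 1 side of the gap and sets of serial numbers as a block (both added after seeing the data), and leaving out each array.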

Additional observations from a re-analysis of the deposited data

Results flagged for a closer look

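In 11 of 168 sets of 5 arrays (a member in a group), 1 array lay far from the other 4, and chance alone gives about 1 in 20. At 24 h these were the highest vehicle arrays of Scap (signal 2490.3, replicate 2) and Srebf2 (4238, replicate 2), and the highest 5000 µM arrays of Sqle (11479.5, replicate 1) and Sc5d (13368.5, replicate 1). At 48 h they were the highest vehicle arrays of Mvk (1808, replicate 1), Mvd (1942, replicate 1) and Cyp51 (11059, replicate 5), the lowest 500 µM array of Insig1 (23717, replicate 3), the lowest 5000 µM array of Mvk (918, replicate 2) and the highest 5000 µM arrays of Ggps1 (1365, replicate 1) and Fdft1 (5395, replicate 5).

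The effect of a dose differed between 48 and 24 h, by limma's test of the difference, in 24 cases. At 5000 µM the log2 differences were 0.54 in Hsd17b7, 0.51 in Insig1, 0.46 in Sqle, 0.37 in Srebf2, 0.36 in Fdps, 0.33 in Cyp51 and -0.28 in Npc2. At 500 µM they were 1.13 in Scap, 0.70 in Mbtps1, 0.67 in Lss, 0.52 in Srebf2, 0.47 in Dhcr7, 0.40 in Hsd17b7, 0.39 in Mvk, 0.30 in Insig1 and 0.24 in Sc5d. The negative differences at 500 µM were -0.59 in Insig2, -0.57 in Lbr, -0.46 in Stard4, -0.40 in Msmo1, -0.35 in Tm7sf2, -0.34 in Idi1, -0.34 in Ebp and -0.28 in Npc2. The 3'/5' ratio moved with the 500 µM differences.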

How the results depend on the processing

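The serial numbers in the titles run in 5 sets of 6 that each hold every group once, and no label says what a set is. Samples of 1 set deviated together somewhat more than samples of different sets, though not throughout. Over 75 same-set pairs from different groups the median correlation of their deviations from the group means was 0.06, with 31 pairs over 0.1. Pairs from different sets had a median of -0.02. By comparison, same-set medians ran from -0.01 to 0.20 and other-set medians from -0.09 to -0.01. Between 2 and 8 of 10 samples were closest to their own set, the most at 500 µM against vehicle at 48 h. In no comparison was every pair over 0.1 or every sample closest to its own set. The main model has no term for the sets. As a replicate block, chosen after seeing the data, the sets left 3, 16, 16 and 11 calls at 500 µM and 24 h, 5000 µM and 24 h, 500 µM and 48 h and 5000 µM and 48 h, and 1 call was lost, Mvd at 500 µM and 48 h (adjusted p = 0.0515). Counts of called members moved by over 1.5 times as follows, and the cause was not tested. At 500 µM and 24 h the 2 calls became 0 with arrays centred on their medians, 1 with no brightness limit, 6 with arrays above or below the 3'/5' gap as a block, 0 with only the groups compared and 0 with only the arrays above the gap, where fewer arrays were fitted. At 500 µM and 48 h the 17 calls became 11 with the mean of all probe sets, 2 with the ratio as a covariate and 3 with the block. At 5000 µM and 48 h the 11 calls became 7 with centring and 6 under that mean of probe sets. Between the doses at 48 h the 14 calls became 9 under the same mean, 4 with the covariate and 6 with the block. The 9 calls between times in vehicle became 1 with the covariate. The 17 differences between times at 500 µM became 10 with centring, 0 with the covariate and 4 with the block, and the 7 at 5000 µM became 4 with centring. Leaving out 1 array gave 0 to 3 calls at 500 µM and 24 h, 13 to 17 at 5000 µM and 24 h, 15 to 16 at 500 µM and 48 h and 7 to 10 at 5000 µM and 48 h. It gave 6 to 9 and 12 to 14 between doses at 24 and 48 h, 7 to 11 between times in vehicle, and 12 to 17 and 4 to 13 differences between times at 500 and 5000 µM. The single arrays that moved a count by over 1.5 times were, for 500 µM at 24 h, vehicle replicates 2 (0 calls) and 5 (1) and dose replicates 1 (1), 2 (1) and 5 (0). For 5000 µM at 48 h this was dose replicate 2 (7), and for the difference between times at 5000 µM it was 24 h vehicle replicate 2 (4) and 24 h dose replicate 1 (13). Among called members in comparisons with vehicle, only Srebf2 with the mean of all probe sets changed sign against the main call, to -0.33 at 500 µM and 48 h and to 0.16 at 5000 µM and 48 h, where a probe set of geometric mean signal 75.2 was averaged in. At 5000 µM and 24 h, 128 of 135 values of called members under other settings and 143 of 150 with 1 array left out kept direction and call. Low signal limits the precision: the SE was 0.33 for the dim Soat1 and 0.51 for the second Srebf2 probe set at 5000 µM and 24 h.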
